A study of Mus musculus with 18 samples.

Results

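Dopamine neurons of the ventral tegmental area (VTA) were compared with those of the substantia nigra (SN) in mice that had received 10 days of MPTP. The comparison used the 3 arrays titled as VTA and the 3 titled as SN at that duration, 6 of the 18 arrays of the series, and all 18193 genes that the arrays could name. The mice were adult C57Bl/6 animals that carried the hTH-GFP transgene, green fluorescent protein driven by human tyrosine hydroxylase sequences, and every group of the series shared that transgene and 9 weeks of single housing. MPTP was given at 4 mg/kg, and the animals were killed 7 days after the last injection. The other arrays, 3 for each region after 2 days of MPTP and 3 for each region in controls, served to estimate the spread and to ask whether the regional difference itself depended on treatment. The protocol gives the controls saline, while their source names call them untreated. The title of the series asks how the answer of VTA neurons to MPTP differs from that of SN neurons.

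MPTP is converted in the brain to a toxin that the dopamine transporter carries into dopamine neurons, where it blocks complex I of the mitochondrial respiratory chain. The dopamine neurons of the SN project mainly to the dorsal striatum and are the more vulnerable to the toxin and in Parkinson disease. Those of the VTA project mainly to the nucleus accumbens and the cortex, are less vulnerable, and more often use peptides, calcium-binding proteins or glutamate beside dopamine.

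Neurons were collected by laser capture, and gene expression was measured on microarrays after amplification of their total RNA. The labels do not say how they were recognised, which mice an array represents, or whether SN and VTA arrays were taken from shared mice. The p-values therefore measure the spread between these samples, which may be partly technical. Values are log2 signals in which each probe set is centred on its own median over the 18 arrays, so they show differences between arrays but neither a level nor whether a gene was detected. For the same reason the labelled cell type could not be checked by the presence of its markers. In captured tissue, fewer cells of a type and less RNA per cell cannot be told apart. The median absolute deviation of the 6 arrays ran from 0.147 to 0.191 log2 units, within the range of 0.123 to 0.269 over the 18 arrays.

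The 6 arrays resembled each other by replicate number more than by region. SN and VTA arrays of the same number correlated at 0.30 for replicate 1, 0.182 for replicate 2 and 0.355 for replicate 3 over all genes. Arrays of the same region correlated between -0.143 and 0.0720, and SN and VTA arrays of different number between -0.169 and 0.0494. These correlations are descriptions across genes, which are not independent replicates. The first principal component of the 6 arrays held 32.5% of the variance and placed replicate 3 of both regions, at 31.1 for SN and 21.8 for VTA, apart from the other arrays, which lay between -19.9 and -7.52. The difference between the regions was therefore also tested with the replicate number as a block, in which each VTA array is set against the SN array of its number.

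**Figure D1:**
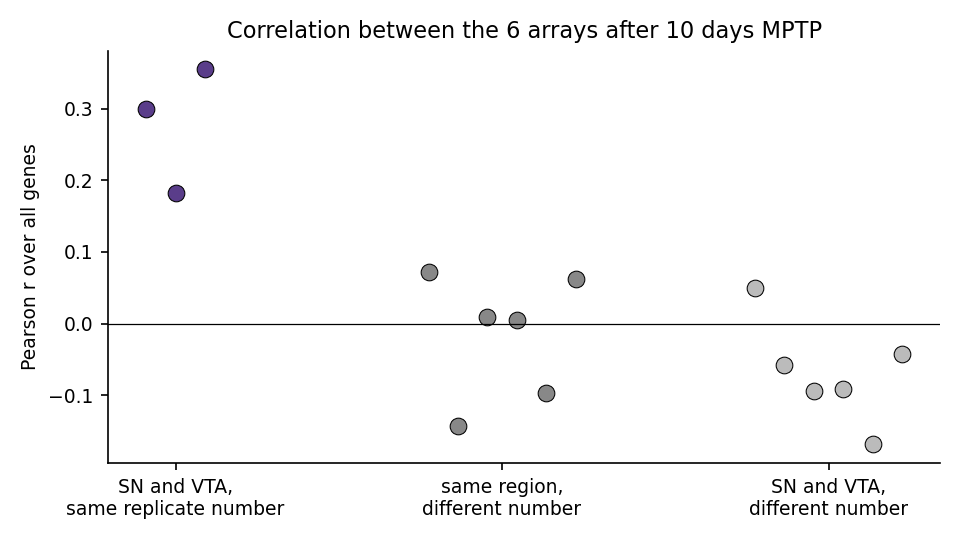
Pearson correlation over all 18193 genes between every 2 of the 6 arrays after 10 days of MPTP (vertical axis), grouped by whether the 2 arrays share a replicate number or a region. The 3 points for SN and VTA arrays of the same number lie at 0.182 to 0.355, above all points of the other groups, which reach 0.0720.

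Across all genes the 2 regions differed little relative to the spread between arrays. None of the 18193 genes passed an adjusted p of 0.05 in limma (0% called, in either direction), and the smallest adjusted p was 0.698, for Vcpkmt, followed by 0.9999. An unadjusted p under 0.05 was given to 544 genes (2.99%), of which 343 (1.89%) were higher and 201 (1.1%) lower in VTA. With the replicate block, limma again called 0 genes (0%), gave 795 (4.37%) an unadjusted p under 0.05, 434 (2.39%) higher and 361 (1.98%) lower in VTA, and had a smallest adjusted p of 0.9999. The median difference between VTA and SN was 0.0046 on the log2 scale, the quartiles were -0.12 and 0.12, and 11 genes differed by more than 1. In 1637 genes (9%) the 3 VTA arrays did not overlap the 3 SN arrays, 888 of them (4.88%) with VTA above and 749 (4.12%) with VTA below. VTA was the higher in each of the 3 same-numbered pairs for 2723 genes (15%) and the lower in each for 2596 (14.3%). All gene values that follow are therefore differences that did not pass the test, given with their standard errors (SE) for 3 arrays in each group.

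**Figure D2:**
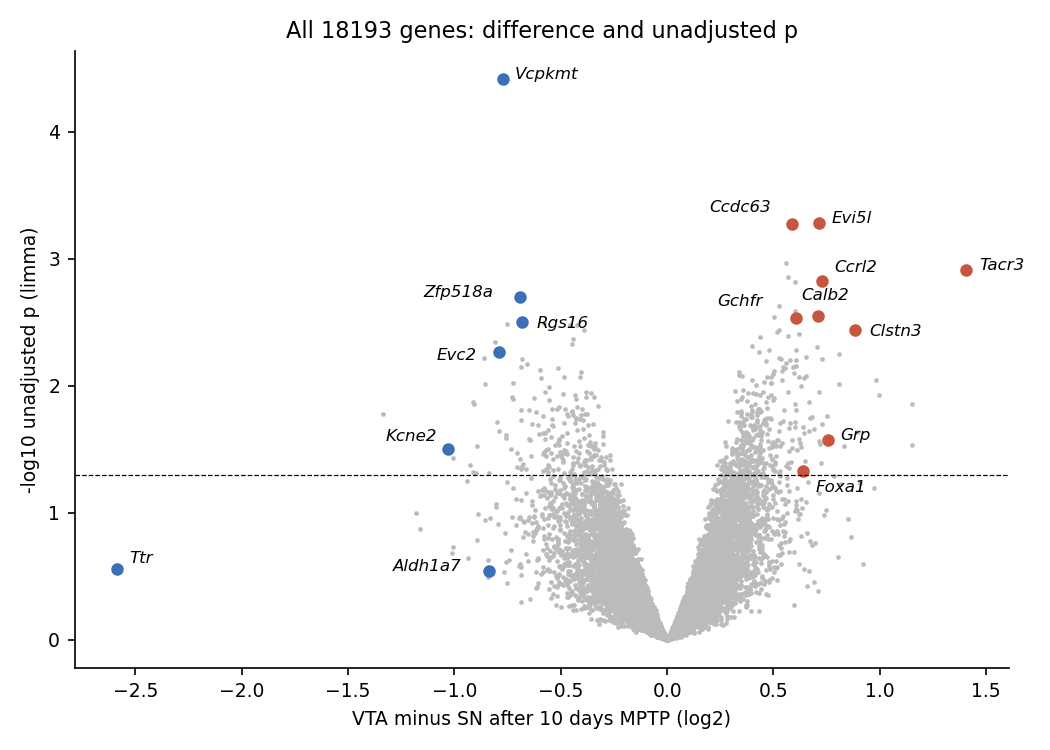
Difference between VTA and SN after 10 days of MPTP in log2 units (horizontal axis) against the negative log10 of the unadjusted limma p (vertical axis), 1 point per gene, with some genes of the text in red (higher in VTA) or blue (lower in VTA). The dashed line is an unadjusted p of 0.05. Tacr3 lies farthest to the right at 1.41, Ttr farthest to the left at -2.59 with a large SE, and no gene passed after adjustment.

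Among 23 measured genes known to be enriched in VTA over SN dopamine neurons, 3 separated the regions on every array after 10 days of MPTP. They were Tacr3, Calb2 and Grp, and all 3 were higher in VTA, beside 888 of all 18193 genes (4.88%) with all VTA arrays above. The other members were divided, so that 13 of 23 were higher and the median difference was 0.032, beside 51.11% higher and a median of 0.0046 over all genes. Without SN array 3, 9 of the 23 were higher and the median was -0.069, and without VTA array 1 the values were 9 and -0.020. In saline the median of the same list was 0.34 and 19 of 23 members were higher, and after 2 days of MPTP it was -0.20 and 4 were higher. Earlier results of these data were known when the list was written, so these counts are descriptions only.

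Tacr3 encodes the neurokinin B receptor, which excites the neurons that carry it. Its centred signal was -0.29, -0.40 and -0.96 on SN arrays 1, 2 and 3, and 0.80, 0.36 and 1.42 on VTA arrays 1, 2 and 3. The lowest VTA array thus stood above the highest SN array, and replicate 3 held both extremes. The difference was 1.41 ± 0.36, a 2.65-fold higher signal (limma unadjusted p = 0.00122, and 0.00537 with the replicate block), and each of its 3 probe sets was higher in VTA, by 1.31 to 1.56. The regional difference of Tacr3 was 1.23 in saline and 0.64 after 2 days.

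Calb2 encodes calretinin, a calcium-binding protein of many medial dopamine neurons. Its centred signal was 0.0012, -0.0022 and -0.057 on the SN arrays and 0.71, 0.77 and 0.60 on the VTA arrays. Within each region the arrays lay close together, and the regions did not overlap. The difference was 0.71 ± 0.20 (limma unadjusted p = 0.00284), and it was 0.71 in saline and 0.69 after 2 days. The difference between the 10 day and the saline value was -0.0031 ± 0.285.

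Grp encodes gastrin-releasing peptide, a bombesin-like neuropeptide. The arrays gave it centred signals of -0.34, -0.46 and -0.58 for SN and 0.17, 0.41 and 0.31 for VTA. All VTA arrays were above all SN arrays, with a difference of 0.76 ± 0.31, against 0.39 in saline and 0.28 after 2 days. Calb2 and Grp are each read by 1 probe set.

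Other VTA genes did not separate the regions. Otx2, a homeobox factor that marks ventral VTA neurons, was at -0.09, 0.35 and 0.81 on the SN arrays and at -0.08, 0.58 and -0.38 on the VTA arrays. The ranges overlapped, with SN array 3 the highest and VTA array 3 the lowest. The difference of Otx2 was -0.32 ± 0.32, against 0.80 in saline, and the change between these values was -1.12 ± 0.45. Otx2 is also a gene of the choroid plexus, whose markers were high on SN array 3, as given with the cell type markers. It is itself a member of that marker list, and the part of these markers in its difference was not tested. Without both replicate 3 arrays the Otx2 difference was 0.12, the only setting that reversed its sign. Without SN array 3 alone VTA stayed the lower, so the reversal also needed the removal of VTA array 3.

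Adcyap1, which encodes the neuropeptide PACAP, differed by 0.23 ± 0.70, and Slc17a6, the vesicular glutamate transporter VGLUT2, by -0.038 ± 0.564. Nts, which encodes neurotensin, differed by -0.52 ± 0.82. Each of these 3 genes had its lowest signal of the region on replicate 3, in SN and in VTA alike, at -1.66 and -0.995 for Adcyap1, -1.30 and -0.86 for Slc17a6, and -1.42 and -1.38 for Nts. The spread between replicate numbers was thus larger than that between regions. Neurod1, a transcription factor, differed by -0.55 ± 0.30, Calb1, calbindin, by -0.22 ± 0.22, and Cck, cholecystokinin, by 0.17 ± 0.26.

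**Figure D3:**
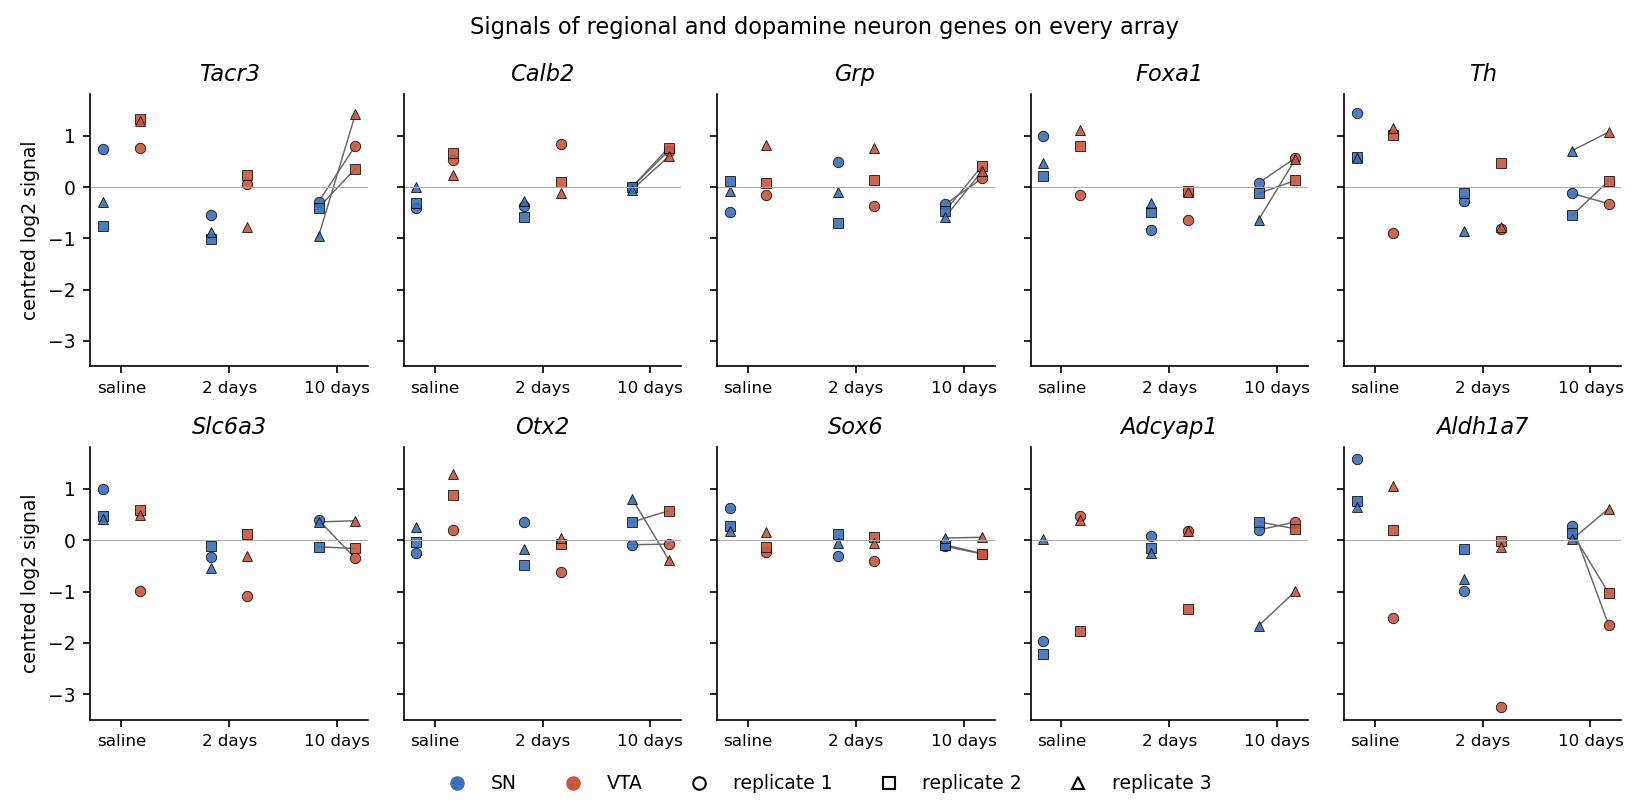
Centred log2 signal (vertical axis) of 10 genes on all 18 arrays, by treatment (horizontal axis: saline, 2 days and 10 days of MPTP) and region (SN blue, VTA red), with the replicate number as the shape of the point and lines that join same-numbered arrays after 10 days. Tacr3, Calb2, Grp and Foxa1 show all VTA arrays above all SN arrays after 10 days, while Otx2, Th and Slc6a3 overlap.

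Genes known to be enriched in SN dopamine neurons were mostly on the SN side, by small amounts. Of 19 measured members, 14 were lower in VTA and 5 higher, with a median of -0.067. None of them separated the regions on every array, none had an unadjusted limma p under 0.05, and the median was -0.24 in pair 1, -0.17 in pair 2 and 0.25 in pair 3. Without VTA array 2, 9 of the 19 were higher in VTA and the median was -0.020, and without VTA array 1 the median was -0.018. Without VTA array 3 it was -0.32. In saline 0 of the 19 were higher in VTA, with a median of -0.35, and after 2 days 4 were, with a median of -0.13. Lower values in VTA at all 3 treatments were found for 12 of the 19 members and for 2533 of all 18193 genes, although the saline values of these genes were known when the list was written.

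Aldh1a7, an aldehyde dehydrogenase close in sequence to Aldh1a1, was at 0.28, 0.14 and 0.016 on the SN arrays and at -1.66, -1.03 and 0.62 on the VTA arrays. VTA arrays 1 and 2 lay below all SN arrays and VTA array 3 above them, and the difference was -0.84 ± 0.76. Aldh1a1, which clears the aldehyde made from dopamine and marks the ventral tier of the SN, differed by -0.23 ± 0.38. The 2 genes can share probes, so their values may not be separate.

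Vav3 differed by -0.34 ± 0.19 with all 3 probe sets lower, and Igf1, insulin-like growth factor 1, by -0.40 ± 0.37 with all 4 lower. Sox6, the transcription factor that sets SN neurons apart during development, differed by -0.10 ± 0.17, against -0.43 in saline, and 2 of its 4 probe sets had the sign of their mean. Atp2a3, a calcium pump of the endoplasmic reticulum, differed by 0.022 ± 0.298 against -0.94 in saline, and the change between these values was 0.96 ± 0.42. The 2 probe sets of Atp2a3 had opposite signs.

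The genes that define dopamine neurons were divided between the regions. Of 24 measured members 13 were higher in VTA and 11 lower, with a median of 0.043, against -0.27 in saline and 0.043 after 2 days. The median ran from -0.17 in pair 1 to 0.058 in pair 2 and 0.23 in pair 3. Both arrays of replicate 3 were high for this list, with a mean signal of 0.34 in SN and 0.54 in VTA, while the other 4 arrays lay between -0.24 and -0.070. Without VTA array 3 the median was -0.22. The part of this replicate effect in the differences was not tested beyond the replicate block.

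Th encodes tyrosine hydroxylase, the rate-limiting enzyme of dopamine synthesis. Its centred signal was -0.13, -0.55 and 0.71 on the SN arrays and -0.32, 0.12 and 1.07 on the VTA arrays. The ranges overlapped for most of their length, replicate 3 was the highest in both regions, and the difference was 0.28 ± 0.52. If neurons were chosen by the fluorescent reporter, which runs on Th regulatory sequence, the Th signal would be tied to how they were collected. Slc6a3, the dopamine transporter through which the toxin enters, differed by -0.25 ± 0.37, and Slc18a2, the vesicular monoamine transporter that sequesters the toxin, by -0.44 ± 0.43. Ddc, the enzyme that makes dopamine from L-DOPA, differed by -0.18 ± 0.31, and the autoreceptor gene Drd2 by -0.079 ± 0.618.

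Foxa1, a forkhead factor needed to make and keep dopamine neurons, was the only one of the 24 members whose arrays did not overlap (4.17%, near the 4.88% of all genes that lay above in VTA without overlap). On the centred scale it was at 0.081, -0.12 and -0.63 on the SN arrays and 0.57, 0.13 and 0.55 on the VTA arrays. VTA array 2 stood only just above SN array 1, and the difference was 0.64 ± 0.30 (limma unadjusted p = 0.0472, and 0.0653 with the replicate block). In saline the regional difference of Foxa1 was 0.025. Nr4a2, the orphan nuclear receptor Nurr1, differed by 0.24 ± 0.14, with all 6 probe sets higher in VTA and values of 0.17 in saline and 0.23 after 2 days. Gfra1, the receptor subunit that binds GDNF, differed by -0.46 ± 0.30.

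Gchfr, which encodes the feedback regulator of GTP cyclohydrolase, the first enzyme in making the cofactor of tyrosine hydroxylase, is not on that list but was among the genes of smallest p. Its centred signal was 0.021, -0.27 and -0.0047 on the SN arrays and 0.71, 0.56 and 0.29 on the VTA arrays. The regions did not overlap, which was part of the rule by which this gene was taken, and the difference was 0.61 ± 0.17. It was -0.22 in saline, and the change from saline to 10 days was 0.83 ± 0.24 (limma unadjusted p = 0.00369), which did not pass.

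**Figure D4:**
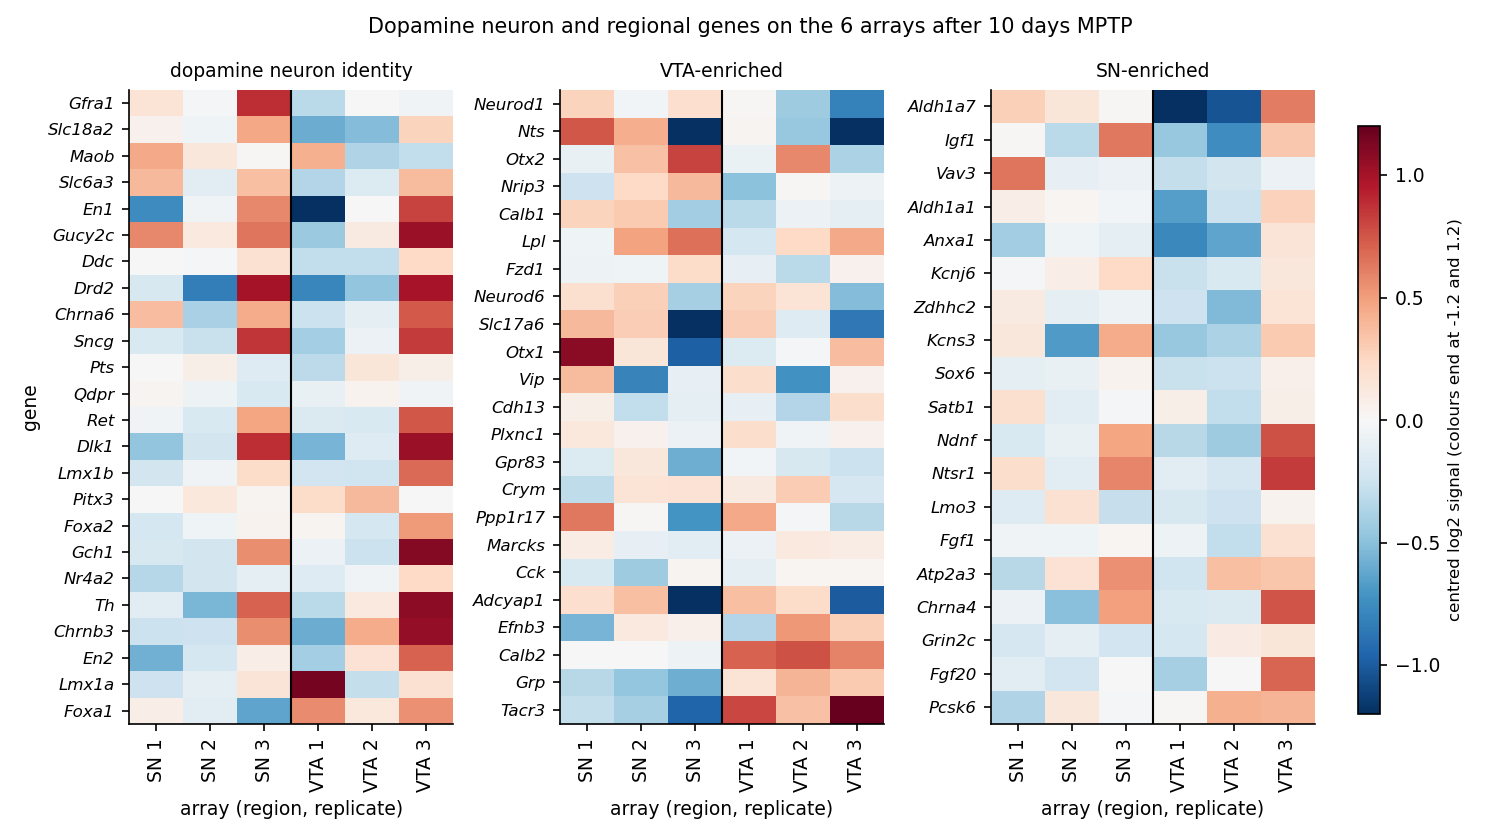
Centred log2 signal of every measured member of 3 gene lists (rows, ordered by the difference between VTA and SN) on the 6 arrays after 10 days of MPTP (columns), red above and blue below each gene's median over the 18 arrays. Calb2, Grp and Tacr3 at the foot of the VTA-enriched list separate the regions, whereas most dopamine neuron genes are high on replicate 3 of both regions, where the list means were 0.34 and 0.54.

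Beyond the lists, genes were taken by smallest p among those without overlap, so their separation was set by that choice. They were spread over unrelated functions. Vcpkmt encodes a methyltransferase that modifies the VCP ATPase, a protein that extracts ubiquitinated proteins from complexes and membranes. Its centred signal was 0.43, 0.42 and 0.21 on the SN arrays and -0.55, -0.41 and -0.29 on the VTA arrays. The gap between the regions was larger than the range within either, and the difference was -0.77 ± 0.14 (limma unadjusted p = 3.84e-05, adjusted p = 0.698, and unadjusted p = 0.000563 with the replicate block). It was -0.30 in saline and 0.10 after 2 days, and it rests on 1 probe set.

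Rgs16 encodes a protein that shortens G protein signals. The SN and VTA signals were apart, at 0.42, 0.16 and 0.12 on the SN arrays and -0.41, -0.30 and -0.62 on the VTA arrays. No VTA array reached the SN range, all 3 probe sets were lower, and the difference was -0.68 ± 0.20. In saline it was 0.38, with VTA the higher.

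Other genes lower on all VTA arrays were Evc2, a ciliary protein of hedgehog signalling, at -0.79 ± 0.25, and Tyw3, an enzyme of transfer RNA modification, at -0.86 ± 0.27. The zinc finger gene Zfp518a was at -0.69 ± 0.19 and Hps6, a subunit of a complex that builds lysosome-related organelles, at -0.58 ± 0.17. Ctnnd1, the adhesion protein p120 catenin, was at -0.45 ± 0.14 with all 3 probe sets lower. Sdhaf2, an assembly factor of respiratory complex II, was at -0.39 ± 0.12 with both probe sets lower.

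Among genes higher on all VTA arrays, Clstn3 encodes calsyntenin 3, a synaptic adhesion protein. On the centred scale it was at -1.005, -0.89 and -0.065 on the SN arrays and -0.049, 0.15 and 0.59 on the VTA arrays. SN array 3 came close to VTA array 1, and the difference was 0.88 ± 0.26. The chemokine-binding receptor gene Ccrl2 was at 0.73 ± 0.19, the Rab regulator Evi5l at 0.71 ± 0.17 with both probe sets higher, and the phospholipid acyltransferase gene Mboat1 at 0.60 ± 0.16 with both higher.

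Ccdc63, a coiled-coil protein gene, was at 0.59 ± 0.14, Misp, which positions the mitotic spindle, at 0.57 ± 0.15, the guanylate cyclase gene Gucy2e at 0.52 ± 0.15 and the tight junction gene Tjp3 at 0.50 ± 0.14. Several of these genes are known mainly from other tissues, and without signal levels it is not known whether they were expressed in these samples.

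The regional difference after 10 days of MPTP was then set against that in saline and after 2 days, in the same limma model. No gene passed for 10 days against saline (0% called), with an unadjusted p under 0.05 for 576 genes (3.17%). None passed for 10 against 2 days (0% called), with an unadjusted p under 0.05 for 349 (1.92%). Over all genes the 10 day difference correlated at 0.0596 with that in saline and at 0.140 with that after 2 days, which share no arrays with it. These are descriptions across genes.

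Defa3, a defensin gene of a family with near-identical copies, had the smallest p against saline, with a regional difference of -0.69 after 10 days and 0.95 in saline. The value for 10 days minus saline was -1.63 ± 0.32. Acad11, a fatty acid oxidation enzyme, was at -0.68 after 10 days and 0.56 in saline, which gives -1.25 ± 0.31 for 10 days minus saline, and Rgs16 gave -1.06 ± 0.28. In the other direction Mboat1 gave 0.87 ± 0.22, Duox1, an enzyme that makes hydrogen peroxide, 0.82 ± 0.21, and Galk2, a sugar kinase, 0.81 ± 0.20. In these genes the sign of the regional difference in saline was opposite to that after 10 days, but limma passed none of them.

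Against 2 days of MPTP, Vcpkmt differed by -0.87 ± 0.19 and Polr3g, a subunit of RNA polymerase III, by -1.04 ± 0.30. Ccrl2 differed by 0.92 ± 0.27, Nfia, a glial and neuronal transcription factor, by 0.72 ± 0.21 with a 10 day regional difference of 0.31 ± 0.15, and Srcin1, an inhibitor of Src kinase, by 0.62 ± 0.18. Again no gene passed.

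Gene groups of energy metabolism were slightly lower in VTA after 10 days. Of 34 measured genes of complex I, the enzyme that the toxin blocks, 27 were lower and 7 higher, with a median of -0.089 beside 0.0046 over all genes. The median was -0.090 in pair 1, -0.11 in pair 2 and -0.039 in pair 3, and 11 members (32.4%) were lower in all 3 pairs, beside 14.3% of all genes. None had an unadjusted limma p under 0.05, with or without the replicate block. Without VTA array 2, 16 of the 34 were higher and the median was -0.038. The list stood at -0.067 in saline, with 8 of 34 higher, and at 0.0092 after 2 days. The list was chosen with earlier results known, and its members share arrays, so these counts are descriptions only.

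Ndufs1, the largest subunit of complex I, was at 0.22, 0.11 and 0.16 on the SN arrays and at -0.066, -0.052 and -0.13 on the VTA arrays. The regions did not overlap, and the difference was -0.25 ± 0.16. Ndufb10, another subunit, differed by -0.31 ± 0.16 with overlap. For complexes II to V, 28 of 38 genes were lower, with a median of -0.046, and 16 (42.1%) were lower in all 3 pairs, beside 14.3% of all genes. The median of this list was -0.048 in saline, with 11 of 38 higher, and 0.015 after 2 days. Without SN array 1, 17 of these 38 were higher. These members share arrays too, and none had an unadjusted limma p under 0.05, with or without the replicate block. Cycs, cytochrome c, was at -0.28 ± 0.14 with all 4 probe sets lower, Cyc1, cytochrome c1, at -0.22 ± 0.13, and Atp5j, a subunit of ATP synthase, at -0.19 ± 0.11, each without overlap.

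Genes of protein synthesis and breakdown showed differences of similar size. Of 31 measured cytosolic ribosomal protein genes 19 were lower in VTA, with a median of -0.050. In all 3 pairs 15 (48.4%) were lower, beside 14.3% of all genes. All VTA arrays lay below all SN arrays for 1 of the 31 (3.23%), beside 4.12% of all genes. None had an unadjusted limma p under 0.05, with or without the replicate block. The members share arrays, so these counts are descriptions only. The ribosomal median was also -0.050 in saline, with 11 of 31 higher, and -0.064 after 2 days, with 4 of 31 higher. Rps10 was at -0.29 ± 0.20 with all 6 probe sets lower and Rpl4 at -0.19 ± 0.16. Ribosomal genes have many processed copies in the genome that probes may also read. Of 31 proteasome genes 22 were lower, with a median of -0.050, among them Psma4 at -0.28 ± 0.15 and Psmc6 at -0.25 ± 0.16, a core and a cap subunit. The proteasome median was -0.14 in pair 1 and 0.033 in pair 3, and without VTA array 2 it was -0.024 with 13 of 31 higher. In saline the proteasome median was -0.10, with 10 of 31 higher, and after 2 days it was -0.0057.

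Genes of the circadian clock had a median of -0.056, with 13 of 20 lower. For 4 of the 20 (20%) all VTA arrays lay below all SN arrays, beside 4.12% of all genes. Per2, a repressor of the clock, was at -0.21, -0.11 and -0.042 on the SN arrays and at -0.60, -0.40 and -0.29 on the VTA arrays. The groups lay near each other without touching, with a difference of -0.31 ± 0.17. Ciart, another clock repressor, was at -0.40 ± 0.24 and the repressor gene Bhlhe41 at -0.31 ± 0.19. No clock gene of the list had an unadjusted limma p under 0.05, with or without the replicate block. Without SN array 3 the clock list stood at -0.15 with 9 of 20 higher. With the probe set of largest SD for each gene it stood at -0.0073 with 10 of 20 higher. In saline the list stood at 0.095 with 16 of 20 higher in VTA.

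Stress and immune genes gave no member past the threshold. Antioxidant genes and targets of the regulator NRF2 stood at a median of -0.050 (21 of 30 lower), among them Gclc, the catalytic subunit for glutathione synthesis, at -0.21 ± 0.12 and the quinone reductase gene Nqo1 at -0.36 ± 0.26. Without SN array 3 the antioxidant list had 14 of 30 higher and a median of -0.014. Unfolded protein response genes stood at -0.011 with 18 of 30 lower, and Pdia4, a protein disulfide isomerase, was at -0.23 ± 0.15. Heat shock chaperones stood at 0.026 with 17 of 28 higher. Among these Hspb1, the small chaperone HSP27, was at -0.65 ± 0.27 and Hspa1a, an inducible HSP70 with a near-identical neighbour, at -0.42 ± 0.34. The BCL2 family, caspases and death receptors stood at 0.0068 with 16 of 30 higher.

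Interferon-stimulated genes stood at a median of -0.079 (22 of 28 lower), from -0.19 in pair 2 to 0.033 in pair 1. Iigp1, an immunity-related GTPase, was at 1.14, 0.36 and 0.83 on the SN arrays and at 0.61, -0.070 and 0.27 on the VTA arrays. The ranges overlapped, but VTA was the lower in each pair, and the difference was -0.51 ± 0.28 (limma unadjusted p = 0.0920, and 0.00534 with the replicate block). Mx1, an antiviral GTPase, was at -0.49 ± 0.24, with SN array 3 the highest at 0.99. Class I histocompatibility and antigen processing genes stood at 0.027 with 10 of 18 higher, B2m at -0.35 ± 0.24 and H2-Q2, a gene with close copies, at 0.40 ± 0.22. Without SN array 3 the interferon list stood at 0.021, with 18 of 28 higher, and without VTA array 2 at 0.022 with 16 higher.

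List medians for growth factor signalling, wiring and excitability ran from 0.0013 to 0.067, beside 0.0046 over all genes. The upper ones stood about as far above it as the ribosomal and proteasome lists stood below it. Ligands and receptors of the GDNF and neurotrophin families stood at 0.065 with 11 of 15 higher. With the probe set of largest SD they stood at 0.021 with 9 higher. Gfra2, the neurturin receptor, was at 0.35 ± 0.24 with all 5 probe sets higher, and Cntfr, the receptor of ciliary neurotrophic factor, at 0.42 ± 0.22. Gdnf was at 0.24 ± 0.15, while Gfra1, given with the dopamine neuron genes, was the lowest member at -0.46. Axon guidance genes stood at 0.034 with 25 of 39 higher, with Sema3c, a semaphorin, at -0.52 ± 0.31 and Ntn1, netrin 1, at 0.28 ± 0.21. Neuropeptides and their receptors stood at 0.039 with 21 of 37 higher, and Adcyap1r1, the PACAP receptor, was at 0.31 ± 0.17.

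Pacemaking and excitability channels were evenly divided, 15 higher and 15 lower, around a median of 0.0013. Kcnd2, the A-type potassium channel Kv4.2, was at -0.28 ± 0.13 with all 4 probe sets lower, and Cacna1d, the L-type calcium channel Cav1.3 that takes part in SN pacemaking, at 0.37 ± 0.20 with its 2 probe sets of opposite sign. Ionotropic glutamate and GABA-A receptors stood at 0.067 with 14 of 25 higher. Their members included the kainate receptor genes Grik5 at 0.41 ± 0.19 and Grik4 at 0.26 ± 0.14, and the GABA-A receptor gene Gabrg1 at -0.38 ± 0.20. Synaptic vesicle genes stood at 0.012 with 19 of 33 higher, with the vesicle GTPase gene Rab3a at 0.26 ± 0.14.

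Genes linked to familial Parkinson disease stood at 0.063 with 7 of 12 higher. Their median was -0.035 in pair 1, 0.23 in pair 2 and -0.066 in pair 3. Without VTA array 2 it was -0.069 with 5 of 12 higher. Lysosome and autophagy genes stood at 0.051 with 20 of 33 higher, with the autophagy gene Atg3 at 0.49 ± 0.22 on 2 probe sets of opposite sign. Sterol and fatty acid synthesis stood at 0.028 with 17 of 25 higher, and at -0.048 with 10 higher without VTA array 3. Immediate early genes stood at -0.023 with 11 of 24 higher and glucocorticoid-responsive genes at -0.016 with 8 of 16 higher. The median of each list in this paragraph changed sign under some settings.

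**Figure D5:**
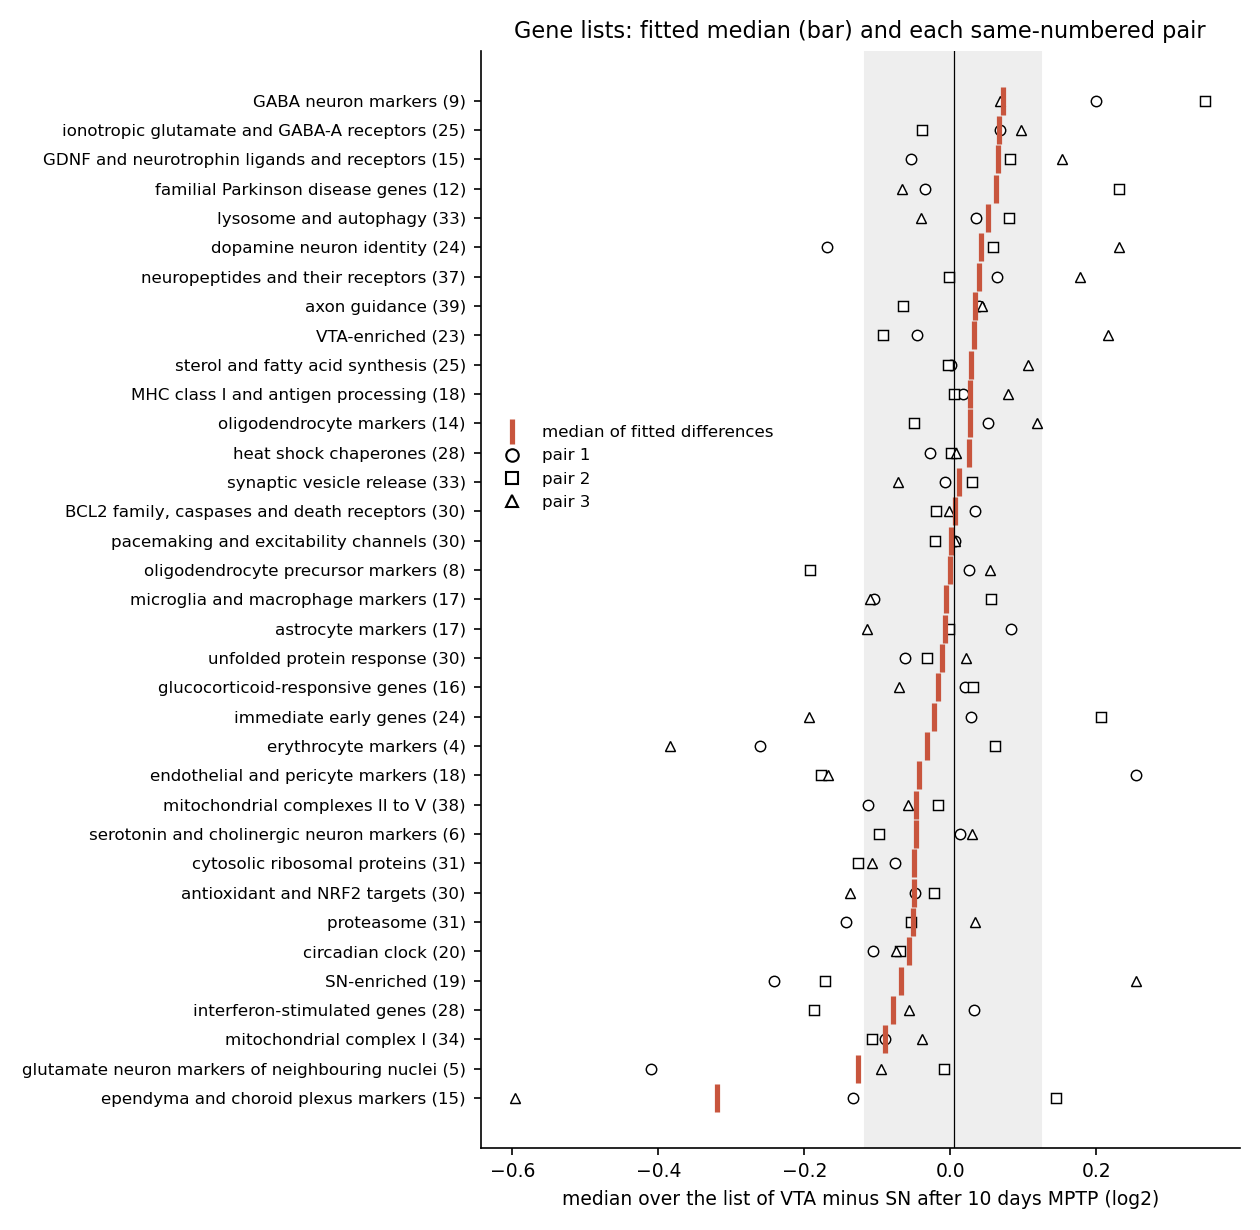
Median over each gene list (rows, with the number of measured genes) of the difference between VTA and SN after 10 days of MPTP in log2 units (horizontal axis). Bars are medians of fitted differences, open symbols are medians within each same-numbered pair, the vertical line is the median of all genes and the grey band runs from the lower to the upper quartile of all genes, -0.12 to 0.12. Ribosomal, clock and complex I genes are among those that lie left of 0 in all 3 pairs, ependyma and choroid plexus markers lie at -0.32, and dopamine neuron genes run from -0.17 to 0.23.

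Markers of other cells show how the captured material varied beside these differences. Markers of ependyma and choroid plexus, the cells that line the ventricles and make cerebrospinal fluid, had the lowest median of the 35 lists, -0.32, with 11 of 15 lower in VTA. Ttr encodes transthyretin, the major product of choroid plexus. Transthyretin signal was -0.85, 5.13 and 6.09 on the SN arrays and 0.25, 0.90 and 1.47 on the VTA arrays. SN arrays 2 and 3 stood far above all others and SN array 1 was the lowest of the 6, with a difference of -2.59 ± 2.30.

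Kcne2, a choroid plexus potassium channel subunit, was at -0.14, 0.70 and 2.48 on the SN arrays and at -0.27, -0.070 and 0.30 on the VTA arrays. Again SN array 3 was the highest, and the difference was -1.03 ± 0.44. Folr1, the folate receptor of the same epithelium, was at -0.43 ± 0.22. The mean signal of the 15 markers was 0.21 to 1.05 on the SN arrays and -0.077 to 0.42 on the VTA arrays, and the list median was -0.094 without SN array 3. Their part in the other differences was not tested.

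Astrocyte markers were even, with 7 of 17 higher, a median of -0.0075 and list means of -0.060 to 0.24 in SN and -0.067 to 0.11 in VTA, whereas 16 of 17 were higher in saline and 1 of 17 after 2 days. The water channel gene Aqp4 was at -0.44 ± 0.22. Microglia and macrophage markers stood at -0.0065 with 7 of 17 higher and list means of -0.22 to 0.39 in SN and -0.16 to 0.28 in VTA. Oligodendrocyte markers stood at 0.027 with 8 of 14 higher and list means of -0.15 to 0.0054 in SN and -0.14 to 0.096 in VTA. Sox10, a transcription factor of oligodendrocytes, was at 0.34 ± 0.25. Of the markers of their precursors 4 of 8 were higher.

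Endothelial and pericyte markers stood at -0.043 with 7 of 18 higher, and ran from -0.18 in pair 2 to 0.25 in pair 1. GABA neuron markers stood at 0.072 with 7 of 9 higher and list means of -0.21 to 0.091 in SN and -0.064 to 0.033 in VTA. Slc32a1, the vesicular GABA transporter, was at 0.38 ± 0.20 with all 4 probe sets higher, and Gata3, a factor of midbrain GABA neurons, was at 0.29 ± 0.31 without overlap. Glutamate neuron markers of neighbouring nuclei stood at -0.13 with 1 of 5 higher, serotonin and cholinergic neuron markers at -0.046 with 2 of 6 higher, and erythrocyte markers at -0.032 with 2 of 4 higher. Because values are centred, none of these markers can be called absent, and their part in the regional differences was not tested.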

How the data were processed

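The deposited files hold 1 log2 value for each of 45101 probe sets in every one of 18 samples. According to the design text of the series, the authors made these log2 values by RMA in GeneSpring GX 10.0, and the submitters' processing notes list RMA too. Beyond naming RMA, the sources used here describe no background correction or filter. The median of each probe set across the 18 arrays was 0 to within 5e-07. Levels and detection calls are therefore not known, dim probe sets could not be filtered, and precision is limited by how many arrays there were.

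The platform's annotation, which can be old, named 34945 probe sets by 1 symbol each. It held several symbols for 932 and no symbol for 9160. A further 64 control probe sets were left out. The 34945 covered 18193 genes, 9010 of them with several probe sets, which were averaged, and a RefSeq table of GRCm38.p6 held 99.74% of their symbols.

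Differences were tested in limma 3.58.1 (R 4.3.3, lmFit and eBayes) as contrasts of 6 group means over 18 arrays, with 12 residual and 4.06 prior degrees of freedom. P-values were two-sided and adjusted by Benjamini-Hochberg over 18193 genes, for 3 comparisons. The fit was tested on simulated data. Groups and replicate numbers came from the sample titles. Deviations from the group means correlated at 0.324, 0.281 and 0.399 between same-numbered SN and VTA arrays after 10 days, each above 0.1, so the numbers were taken to pair these arrays. This pairing comes from the data, since no label states it. In the other groups the same correlation was below 0.1 for saline replicate 1 (0.064) and for 2 days replicate 3 (0.050). The rest ran from 0.20 to 0.23. The replicate block nevertheless covered all 18 arrays, except where it was fitted within the 6. Plots were made in Python 3.11.15 with matplotlib 3.10.9.

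Members and gene lists were chosen with earlier results of these data known. The 35 lists held 848 genes, of which 764 were matched (3 by an older name or gene ID) and 84 were not used here. The genes eligible for the text were the 12 of smallest p each way without overlap, up to 3 members each way of each list, all dopamine neuron, VTA-enriched and SN-enriched genes, and the 4 of smallest p each way for each change of the regional difference. Clone and predicted symbols were skipped, and not every eligible gene is printed. The alternatives were other choices of probe set, samples, scaling, weights, prior, replicate block and left-out arrays. No sequence bears on the comparison, and none is shown.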

Additional observations from a re-analysis of the deposited data

How the results depend on the processing

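For VTA against SN after 10 days of MPTP the count of called genes was 0 under all 21 alternatives, with smallest adjusted p-values from limma of 0.209 or more. With the replicate block it was 0, as for both changes of the regional difference, so the pairing changed no call. Unadjusted p-values under 0.05 ran from 288 genes, without both replicate 2 arrays, to 1437 of 34945 probe sets tested singly with the block. For 10 days against saline, leaving out the 2 arrays of widest spread (VTA after 2 days replicate 1 and SN saline replicate 1) gave 1 called gene, Dctpp1 (adjusted p = 0.0294), named after its value was seen. All other alternatives run for the changes of the regional difference gave 0. The cause was not tested.

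Of 89 genes named in the report, 81 kept their sign under the 19 settings run for each, and none passed under any. Part of this sign-keeping was fixed in advance. Replicate blocks, a robust prior, fitting only the compared groups and omitting the arrays of widest spread returned the main differences and list medians. Genes whose VTA and SN arrays did not overlap could not change sign when arrays were left out. Leaving out arrays, singly or both of a replicate number, gave -0.59 to 0.12 for Otx2, -0.42 to 0.66 for Adcyap1, -0.59 to 0.27 for Slc17a6, -0.51 to 0.020 for Aldh1a1, -0.21 to 0.23 for Atp2a3, -0.11 to 0.63 for Th and -0.62 to 0.42 for Drd2. With the probe set of largest SD, Slc17a6 was at 0.063, Sox6 at 0.017 and Atp2a3 at -0.45. Array weights gave -0.054 for Adcyap1 and 0.20 for Drd2, and repeated quantile normalisation gave 0.050 for Drd2. Of the 35 list medians, 11 kept their sign throughout. Below 0 were complex I (-0.11 to -0.038), complexes II to V (-0.12 to -0.027), ribosomal proteins (-0.12 to -0.049) and the proteasome (-0.087 to -0.020). So were antioxidant genes (-0.11 to -0.014), clock genes (-0.15 to -0.0073), SN-enriched genes (-0.32 to -0.018) and ependyma with choroid plexus (-0.59 to -0.094). Above 0 were neuropeptides and their receptors (0.0073 to 0.12), axon guidance (0.0072 to 0.10) and GDNF with neurotrophins (0.021 to 0.13). The settings that leave out both arrays of a number and the block on single probe sets were chosen after seeing the data.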
